A study of Mus musculus with 22 samples.

Results

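The 40 genes described here copy DNA or prepare the cell to do so. They were taken by gene symbol from the deposited expression tables of EMT6 tumours, which write symbols in capitals, and all 40 were found among the 24353 genes of each table. EMT6 is a mouse mammary carcinoma line. Per the labels, 200000 cells were injected into both inguinal mammary fat pads of wild type BALB/c mice aged 5 to 6 weeks, so each mouse carried a right and a left tumour. Tumours were dissociated and parted on beads against CD45, a surface protein of leukocytes, into a CD45-negative fraction enriched for tumour cells and a CD45-positive fraction enriched for leukocytes.

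Every treated group received JQ1 by gavage at 50 mg/kg each day. JQ1 is an inhibitor of the BET bromodomain proteins, which bind acetylated histones. The 3-drug group also received paclitaxel, which stabilises microtubules, and an antibody against PD-L1 (clone 10F.9G2), each injected at 10 mg/kg. The remaining groups received JQ1 with paclitaxel, JQ1 with anti-PD-L1, JQ1 alone, or vehicle. The CD45-negative fraction had 3 libraries from 3-drug tumours, 3 from JQ1 with paclitaxel, and 2 from each of the other groups. The CD45-positive fraction had 2 libraries in each group. Paclitaxel and anti-PD-L1 were never given without JQ1. The groups given vehicle, JQ1 alone, or JQ1 and anti-PD-L1 each carry a single mouse code, with a right and a left tumour, and what the code stands for is not stated in the labels. The p-values therefore measure the spread between tumours, some of which may come from the same animal. The first part of the mouse code was never shared between treatment groups. Whatever that part stands for cannot be told apart from treatment in any comparison.

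Replication is prepared in G1, when CDC6 and CDT1 load the ring-shaped MCM2 to MCM7 helicase onto origins. At the start of S phase CDC45 and the GINS complex join the ring and turn it into the active helicase. Primase and polymerase alpha then lay down primers, polymerases delta and epsilon extend them on the PCNA clamp, and FEN1 and LIG1 join the pieces of the lagging strand. Many of these genes are transcribed under E2F factors as cells pass from G1 into S phase, so their summed transcripts are widely read as a sign of cycling cells.

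Expression was given as FPKM, fragments scaled to transcript length and to the number of mapped fragments. These are levels per length, so levels of different genes can be set side by side. Absolute depth is unknown. Relative depth, read from the steps between low values, was 0.547 to 1.79 across CD45-negative libraries and 0.629 to 1.71 across CD45-positive libraries, relative to the geometric mean of each fraction. Both CD45-negative JQ1 libraries (0.554 and 0.653) were shallower than both vehicle libraries (1.79 and 1.13). In the 10 tumours with both fractions, 12 leukocyte genes together reached 6.54% to 15.7% of their CD45-positive level in CD45-negative cells. The sum of 7 epithelial genes was 299.3 to 890.7 FPKM in CD45-negative and 5.48 to 97.1 FPKM in CD45-positive libraries. The epithelial gene CDH1 was under 1 FPKM in every CD45-negative library.

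A gene was tested where it reached 1 FPKM in at least 2 libraries of its fraction. This held for all 40 replication genes in CD45-negative cells, among 10780 genes tested, and for 38 in CD45-positive cells, among 10340. CDC6 and GINS3 were too low there. Differences are given on the log2(FPKM + 1) scale ± standard error, which understates changes at low levels. The words rose and fell are kept for an adjusted p under 0.05 from limma, adjusted over all genes tested. These are bulk samples, so fewer cycling cells and less RNA per cell cannot be told apart.

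The 40 genes together were lowest in JQ1 with paclitaxel in both fractions. In CD45-negative cells their summed level was 771.4, 652.2 and 750.5 FPKM in 3-drug tumours, 542.1, 529.2 and 589.5 FPKM with JQ1 and paclitaxel, 816.7 and 754.7 FPKM with JQ1 and anti-PD-L1, 671.8 and 830.7 FPKM with JQ1, and 720.4 and 785.7 FPKM with vehicle. The 3 libraries of JQ1 with paclitaxel lay below the other 9. In CD45-positive cells the sum was 524.0 and 509.3 FPKM in 3-drug tumours, 325.7 and 254.5 FPKM with JQ1 and paclitaxel, 419.3 and 446.6 FPKM with JQ1 and anti-PD-L1, 413.4 and 379.6 FPKM with JQ1, and 408.8 and 441.0 FPKM with vehicle. Here the 2 libraries of JQ1 with paclitaxel lay below the other 8, and both 3-drug libraries lay above them.

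**Figure D1:**
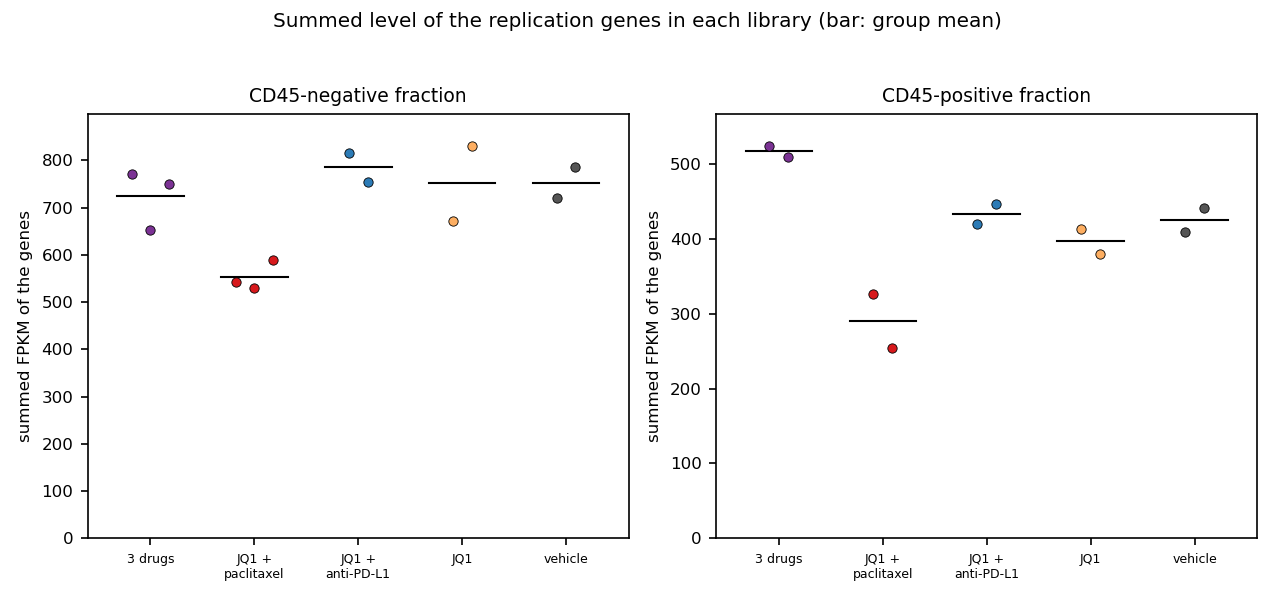
Summed FPKM of the 40 replication genes in each library of the CD45-negative (left) and CD45-positive (right) fraction, by treatment group, with 1 point per library and a bar at the group mean. The JQ1 with paclitaxel libraries, at 529.2 to 589.5 and 254.5 to 325.7 FPKM, lie below all others of their fraction.

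In CD45-negative cells, 11 of the 40 genes fell and none rose in JQ1 with paclitaxel (n = 3) relative to vehicle (n = 2). They were the helicase subunits MCM2, MCM3 and MCM5, the helicase activators CDC45 and GINS1, the clamp loader subunit RFC4, the polymerase delta subunits POLD1 and POLD2, the ligase LIG1, and the nucleotide enzymes RRM1 and TK1. Their differences ran from −1.39 to −0.61, with adjusted p from 0.00211 to 0.0348. Over all genes tested, 12.3% fell and 5.29% rose in this comparison. The median difference was −0.37 for the replication genes, of which 33 were lower and 7 higher, against −0.07 for all genes tested, of which 55.4% were lower. In 26 of the 40 every JQ1 with paclitaxel library lay below both vehicle libraries, as did 29.2% of all genes. The count rests on few tumours. It was 6 without vehicle replicate 1, 3 without vehicle replicate 2, 7 without JQ1 with paclitaxel replicate 2, and 1 after averaging the tumours of each mouse code.

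In the comparison of 3-drug tumours (n = 3) with JQ1 and paclitaxel (n = 3), 13 of the 40 genes rose and none fell. They were MCM2, MCM3, MCM5, MCM6, CDC45, POLD1, POLD2, LIG1, RRM1 and TK1, with the licensing factor CDT1, the flap nuclease FEN1 and the transcription factor E2F1. The differences ran from 0.43 to 1.28, with adjusted p from 0.0028 to 0.0363. Of all genes tested, 9.09% rose and 6.79% fell. The median difference was 0.34 for the replication genes, against 0.01 for all genes. In 17 of the 40 all 3-drug libraries lay above all JQ1 with paclitaxel libraries, against 17.2% of all genes. Both comparisons contain the JQ1 with paclitaxel libraries, so they are not independent. The count was 7 without 3-drug replicate 1, 6 without 3-drug replicate 3, 7 without JQ1 with paclitaxel replicate 1, 8 without its replicate 2, and 8 after averaging the tumours of each mouse code.

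Scaling each library to the median of well-measured genes moved the median of all genes by 0.14 for JQ1 with paclitaxel against vehicle, and by −0.09 for 3-drug tumours against JQ1 with paclitaxel. Of all genes, 570 rose and 1323 fell in the first comparison as deposited, and 988 rose and 899 fell after scaling. In the second comparison 980 rose and 732 fell as deposited, and 844 rose and 1188 fell after scaling. The replication genes then gave 9 lower in the first comparison, and 11 higher and 1 lower (GINS4) in the second. Their median kept its sign under every alternative run, at −0.43 to −0.22 in the first comparison and 0.23 to 0.41 in the second.

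Across the 5 groups, the mean of JQ1 with paclitaxel was the lowest for 29 of the 40 genes, against 21.2% of all genes tested, and the highest for 0. For 12 of the 40 each of its 3 libraries lay below all 9 others, against 3.04% of all genes. The 12 were MCM2, MCM3, MCM5, MCM6, MCM7, CDC45, POLD1, POLD2, FEN1, LIG1, RRM1 and E2F1.

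The MCM2 to MCM7 ring, the motor of the replication fork, had differences below 0 in each of its 6 subunits with JQ1 and paclitaxel against vehicle, and 3 of the 6 fell. MCM2 had 26.7, 25.4 and 31.7 FPKM in 3-drug tumours, 17.1, 16.5 and 16.2 FPKM with JQ1 and paclitaxel, 30.5 and 25.0 FPKM with JQ1 and anti-PD-L1, 25.2 and 25.1 FPKM with JQ1, and 30.8 and 29.4 FPKM with vehicle. The 3 JQ1 with paclitaxel values lay close together and far below the rest, and MCM2 fell against vehicle (−0.82 ± 0.14, adjusted p = 0.00282) and was higher in 3-drug tumours than with JQ1 and paclitaxel (0.71 ± 0.13, adjusted p = 0.00383). MCM3 had 17.4, 17.5 and 15.4 FPKM in 3-drug tumours, 8.90, 9.20 and 6.24 FPKM with JQ1 and paclitaxel, 19.2 and 13.0 FPKM with JQ1 and anti-PD-L1, 12.9 and 13.4 FPKM with JQ1, and 16.5 and 16.8 FPKM with vehicle. It showed the same order (−0.97 ± 0.19 against vehicle, adjusted p = 0.00518, and 0.98 ± 0.17 for 3-drug tumours against JQ1 with paclitaxel, adjusted p = 0.00324), with the vehicle and 3-drug values overlapping.

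MCM5 had 32.5, 27.1 and 41.8 FPKM in 3-drug tumours, 18.0, 18.7 and 19.9 FPKM with JQ1 and paclitaxel, 38.2 and 32.6 FPKM with JQ1 and anti-PD-L1, 30.6 and 36.9 FPKM with JQ1, and 31.0 and 32.4 FPKM with vehicle. No library outside JQ1 with paclitaxel came under 27.1 FPKM, and MCM5 fell there against vehicle (−0.72 ± 0.17, adjusted p = 0.0151) and was higher in 3-drug tumours (0.79 ± 0.16, adjusted p = 0.00637). MCM6 had 33.8, 30.9 and 35.3 FPKM in 3-drug tumours, 23.9, 24.2 and 24.6 FPKM with JQ1 and paclitaxel, 41.4 and 40.0 FPKM with JQ1 and anti-PD-L1, 37.9 and 38.1 FPKM with JQ1, and 30.2 and 33.3 FPKM with vehicle. It differed between 3-drug tumours and JQ1 with paclitaxel (0.44 ± 0.11, adjusted p = 0.0193). Against vehicle its adjusted p was 0.0573 (−0.37 ± 0.13).

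**Figure D2:**
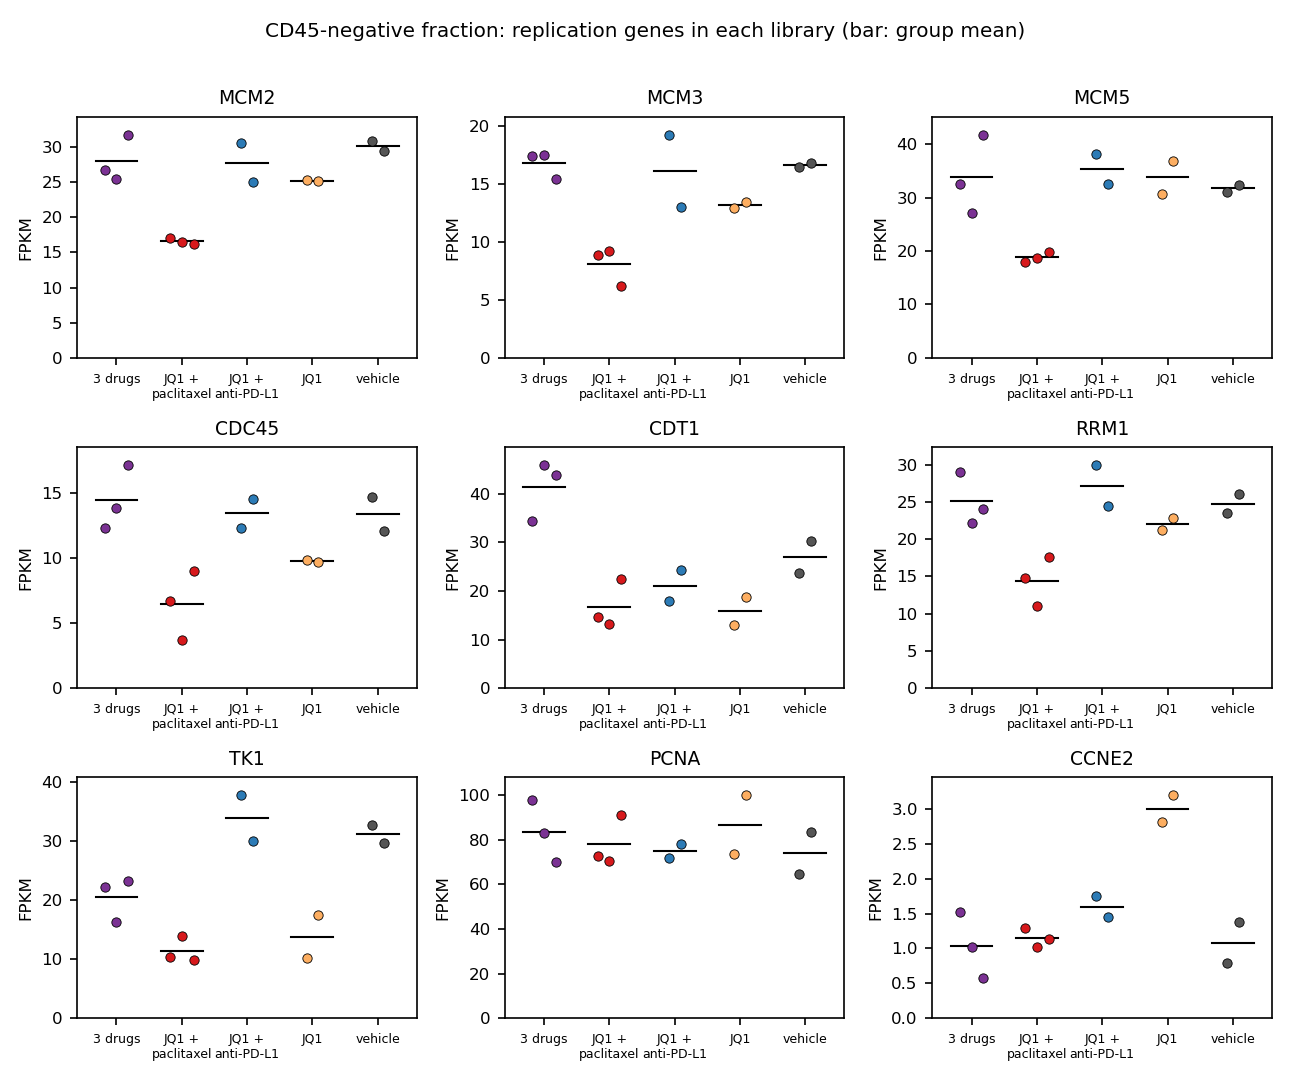
FPKM of 9 replication genes in each CD45-negative library, by treatment group, with 1 point per library and a bar at the group mean. MCM2, MCM3, MCM5, CDC45 and RRM1 are lowest in the JQ1 with paclitaxel libraries, TK1 is low with JQ1 and with JQ1 and paclitaxel, PCNA overlaps across groups, and CCNE2 is highest with JQ1 alone.

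The loading factors CDC6 and CDT1 behaved unlike each other. CDT1 had 34.5, 45.9 and 43.9 FPKM in 3-drug tumours, 14.6, 13.3 and 22.5 FPKM with JQ1 and paclitaxel, 18.0 and 24.3 FPKM with JQ1 and anti-PD-L1, 12.9 and 18.7 FPKM with JQ1, and 23.7 and 30.3 FPKM with vehicle. All 3-drug values exceeded all others, and CDT1 was higher there than with JQ1 and paclitaxel (1.28 ± 0.21, adjusted p = 0.0028). CDC6 stayed between 0.537 and 2.51 FPKM. It had 1.43, 0.897 and 1.26 FPKM in 3-drug tumours, 1.06, 1.69 and 0.537 FPKM with JQ1 and paclitaxel, 1.15 and 1.48 FPKM with JQ1 and anti-PD-L1, 2.36 and 2.51 FPKM with JQ1, and 1.49 and 1.46 FPKM with vehicle. Only the JQ1 libraries stood above the rest, and CDC6 passed the test in no comparison.

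Of the factors that activate the ring, CDC45 had 12.3, 13.9 and 17.2 FPKM in 3-drug tumours, 6.67, 3.72 and 9.05 FPKM with JQ1 and paclitaxel, 12.3 and 14.6 FPKM with JQ1 and anti-PD-L1, 9.89 and 9.68 FPKM with JQ1, and 14.8 and 12.1 FPKM with vehicle. It fell with JQ1 and paclitaxel against vehicle (−1.01 ± 0.26, adjusted p = 0.0196) and was higher in 3-drug tumours (1.10 ± 0.23, adjusted p = 0.00812). GINS1, a GINS subunit, had 5.07, 3.32 and 4.04 FPKM in 3-drug tumours, 2.5, 2.5 and 3.39 FPKM with JQ1 and paclitaxel, 4.69 and 5.27 FPKM with JQ1 and anti-PD-L1, 4.15 and 6.25 FPKM with JQ1, and 5.65 and 7.13 FPKM with vehicle. It fell against vehicle (−0.96 ± 0.21, adjusted p = 0.009), while the 3-drug and JQ1 with paclitaxel values overlapped. GINS2, a partner subunit, had 19.1, 15.3 and 25.0 FPKM in 3-drug tumours, 12.3, 13.6 and 14.7 FPKM with JQ1 and paclitaxel, 22.6 and 24.3 FPKM with JQ1 and anti-PD-L1, 10.6 and 23.3 FPKM with JQ1, and 22.0 and 24.8 FPKM with vehicle. The 2 JQ1 libraries were far apart, and GINS2 passed no test. GINS4, singled out after its values were seen, had an opposite sign in 3-drug tumours, with overlapping values of 19.2, 14.9 and 14.0 FPKM against 22.6, 26.4 and 18.0 FPKM with JQ1 and paclitaxel (−0.45 ± 0.18, adjusted p = 0.113).

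PCNA, the sliding clamp, had the highest level per length of the 40 genes and overlapped across groups. It had 97.7, 83.0 and 70.1 FPKM in 3-drug tumours, 72.9, 70.4 and 91.0 FPKM with JQ1 and paclitaxel, 71.9 and 78.3 FPKM with JQ1 and anti-PD-L1, 73.5 and 100.02 FPKM with JQ1, and 64.7 and 83.4 FPKM with vehicle. The difference between JQ1 with paclitaxel and vehicle was 0.08 ± 0.19. RFC4, a subunit of the complex that opens and loads the clamp, had 11.5, 7.72 and 11.0 FPKM in 3-drug tumours, 8.66, 6.54 and 9.02 FPKM with JQ1 and paclitaxel, 14.5 and 12.6 FPKM with JQ1 and anti-PD-L1, 6.91 and 8.91 FPKM with JQ1, and 12.6 and 17.5 FPKM with vehicle. It fell with JQ1 and paclitaxel (−0.82 ± 0.21, adjusted p = 0.0206) and with JQ1 alone (−0.84 ± 0.23, adjusted p = 0.0303), and the 3-drug values overlapped those of JQ1 with paclitaxel.

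Of the 8 polymerase and primase genes, 5 were lower and 3 higher with JQ1 and paclitaxel than with vehicle, and 2 passed the test. These were POLD1 and POLD2, of the lagging strand polymerase delta, which fell. Its catalytic subunit POLD1 had 13.1, 12.8 and 18.9 FPKM in 3-drug tumours, 8.97, 8.87 and 8.68 FPKM with JQ1 and paclitaxel, 17.6 and 13.1 FPKM with JQ1 and anti-PD-L1, 11.4 and 11.1 FPKM with JQ1, and 14.1 and 14.0 FPKM with vehicle. It fell against vehicle by 0.61 ± 0.18 on the log2 scale (adjusted p = 0.0348) and was higher in 3-drug tumours (0.67 ± 0.16, adjusted p = 0.0151). POLD2, its accessory subunit, had 28.5, 21.7 and 32.9 FPKM in 3-drug tumours, 18.6, 17.0 and 18.6 FPKM with JQ1 and paclitaxel, 30.3 and 28.0 FPKM with JQ1 and anti-PD-L1, 19.4 and 24.0 FPKM with JQ1, and 28.1 and 35.2 FPKM with vehicle. Every JQ1 with paclitaxel library was the lower one (−0.77 ± 0.18 against vehicle, adjusted p = 0.013).

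POLE, the catalytic subunit of the leading strand polymerase epsilon, had 1.44, 1.38 and 1.15 FPKM in 3-drug tumours, 1.99, 1.53 and 1.30 FPKM with JQ1 and paclitaxel, 1.93 and 1.76 FPKM with JQ1 and anti-PD-L1, 2.66 and 1.79 FPKM with JQ1, and 1.02 and 0.585 FPKM with vehicle. Vehicle was the lowest group, and the difference for JQ1 with paclitaxel was 0.53 ± 0.20 (adjusted p = 0.0822). POLA1, the catalytic subunit of the primer-making polymerase alpha, had 3.84, 3.33 and 2.60 FPKM in 3-drug tumours, 1.93, 2.91 and 1.77 FPKM with JQ1 and paclitaxel, 3.32 and 2.76 FPKM with JQ1 and anti-PD-L1, 3.84 and 3.06 FPKM with JQ1, and 2.08 and 1.73 FPKM with vehicle. JQ1 with paclitaxel overlapped vehicle, and POLA1 passed no test.

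Of the lagging strand enzymes, FEN1, which cuts away primer flaps, had 16.7, 16.9 and 19.9 FPKM in 3-drug tumours, 11.2, 11.6 and 13.6 FPKM with JQ1 and paclitaxel, 20.1 and 16.9 FPKM with JQ1 and anti-PD-L1, 17.6 and 20.6 FPKM with JQ1, and 14.9 and 19.5 FPKM with vehicle. It was higher in 3-drug tumours than with JQ1 and paclitaxel (0.52 ± 0.15, adjusted p = 0.0334). LIG1, which seals the nicks, had 12.6, 12.1 and 14.7 FPKM in 3-drug tumours, 8.53, 5.67 and 10.2 FPKM with JQ1 and paclitaxel, 16.0 and 12.1 FPKM with JQ1 and anti-PD-L1, 13.1 and 12.8 FPKM with JQ1, and 15.0 and 13.4 FPKM with vehicle. It fell against vehicle (−0.76 ± 0.21, adjusted p = 0.025) and was higher in 3-drug tumours (0.66 ± 0.19, adjusted p = 0.0312). None of the 3 RPA genes, which coat single-stranded DNA, passed the test. RPA2 had 14.1, 11.6 and 9.05 FPKM in 3-drug tumours, 9.19, 7.96 and 9.40 FPKM with JQ1 and paclitaxel, 11.4 and 11.5 FPKM with JQ1 and anti-PD-L1, 12.6 and 11.4 FPKM with JQ1, and 11.6 and 12.2 FPKM with vehicle, so the 3-drug values overlapped those of JQ1 with paclitaxel.

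TK1, the thymidine kinase of the salvage route, gave the lowest p of the 40 genes against vehicle. It had 22.2, 16.2 and 23.3 FPKM in 3-drug tumours, 10.4, 14.0 and 9.91 FPKM with JQ1 and paclitaxel, 37.8 and 30.1 FPKM with JQ1 and anti-PD-L1, 10.2 and 17.5 FPKM with JQ1, and 32.8 and 29.7 FPKM with vehicle. JQ1 with and without paclitaxel were low and overlapped, 3-drug tumours lay above JQ1 with paclitaxel and below vehicle, and JQ1 with anti-PD-L1 overlapped vehicle. TK1 fell with JQ1 and paclitaxel (−1.39 ± 0.23, adjusted p = 0.00211) and with JQ1 alone (−1.16 ± 0.25, adjusted p = 0.0103). It rose where anti-PD-L1 was added to JQ1 and paclitaxel (0.79 ± 0.21, adjusted p = 0.0212) and where it was added to JQ1 (1.27 ± 0.25, adjusted p = 0.0153).

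RRM1, the large subunit of ribonucleotide reductase, had 29.0, 22.2 and 24.0 FPKM in 3-drug tumours, 14.7, 11.0 and 17.5 FPKM with JQ1 and paclitaxel, 29.9 and 24.4 FPKM with JQ1 and anti-PD-L1, 21.2 and 22.8 FPKM with JQ1, and 23.5 and 26.0 FPKM with vehicle. It fell against vehicle (−0.76 ± 0.19, adjusted p = 0.0171) and was higher in 3-drug tumours (0.77 ± 0.17, adjusted p = 0.00994). RRM2, the small subunit, had 56.4, 41.3 and 50.4 FPKM in 3-drug tumours, 45.6, 36.2 and 46.2 FPKM with JQ1 and paclitaxel, 61.3 and 59.7 FPKM with JQ1 and anti-PD-L1, 60.6 and 79.8 FPKM with JQ1, and 43.9 and 53.2 FPKM with vehicle. JQ1 with paclitaxel overlapped vehicle for RRM2, whose difference was −0.18 ± 0.18. TYMS, the thymidylate synthase, had 15.3, 7.75 and 12.0 FPKM in 3-drug tumours, 8.71, 7.36 and 10.1 FPKM with JQ1 and paclitaxel, 15.1 and 12.4 FPKM with JQ1 and anti-PD-L1, 9.67 and 12.3 FPKM with JQ1, and 9.89 and 13.3 FPKM with vehicle, and it passed no test.

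E2F1, a transcription factor that drives many of these genes, had 16.0, 15.7 and 18.6 FPKM in 3-drug tumours, 12.8, 10.8 and 13.0 FPKM with JQ1 and paclitaxel, 16.2 and 16.9 FPKM with JQ1 and anti-PD-L1, 16.0 and 16.4 FPKM with JQ1, and 13.8 and 13.6 FPKM with vehicle. The values with JQ1 and paclitaxel were the lowest, and 3-drug tumours were higher than these (0.43 ± 0.13, adjusted p = 0.0363). The cyclins E bind CDK2 and open S phase. CCNE1 had 8.99, 4.78 and 10.1 FPKM in 3-drug tumours, 4.65, 5.99 and 6.47 FPKM with JQ1 and paclitaxel, 8.40 and 7.61 FPKM with JQ1 and anti-PD-L1, 9.48 and 11.6 FPKM with JQ1, and 6.14 and 6.64 FPKM with vehicle. CCNE2 had 1.52, 1.02 and 0.581 FPKM in 3-drug tumours, 1.30, 1.02 and 1.14 FPKM with JQ1 and paclitaxel, 1.76 and 1.45 FPKM with JQ1 and anti-PD-L1, 2.81 and 3.20 FPKM with JQ1, and 0.787 and 1.38 FPKM with vehicle. CCNE1 passed no test, and the call of CCNE2 with JQ1 alone is given with that comparison.

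**Figure D3:**
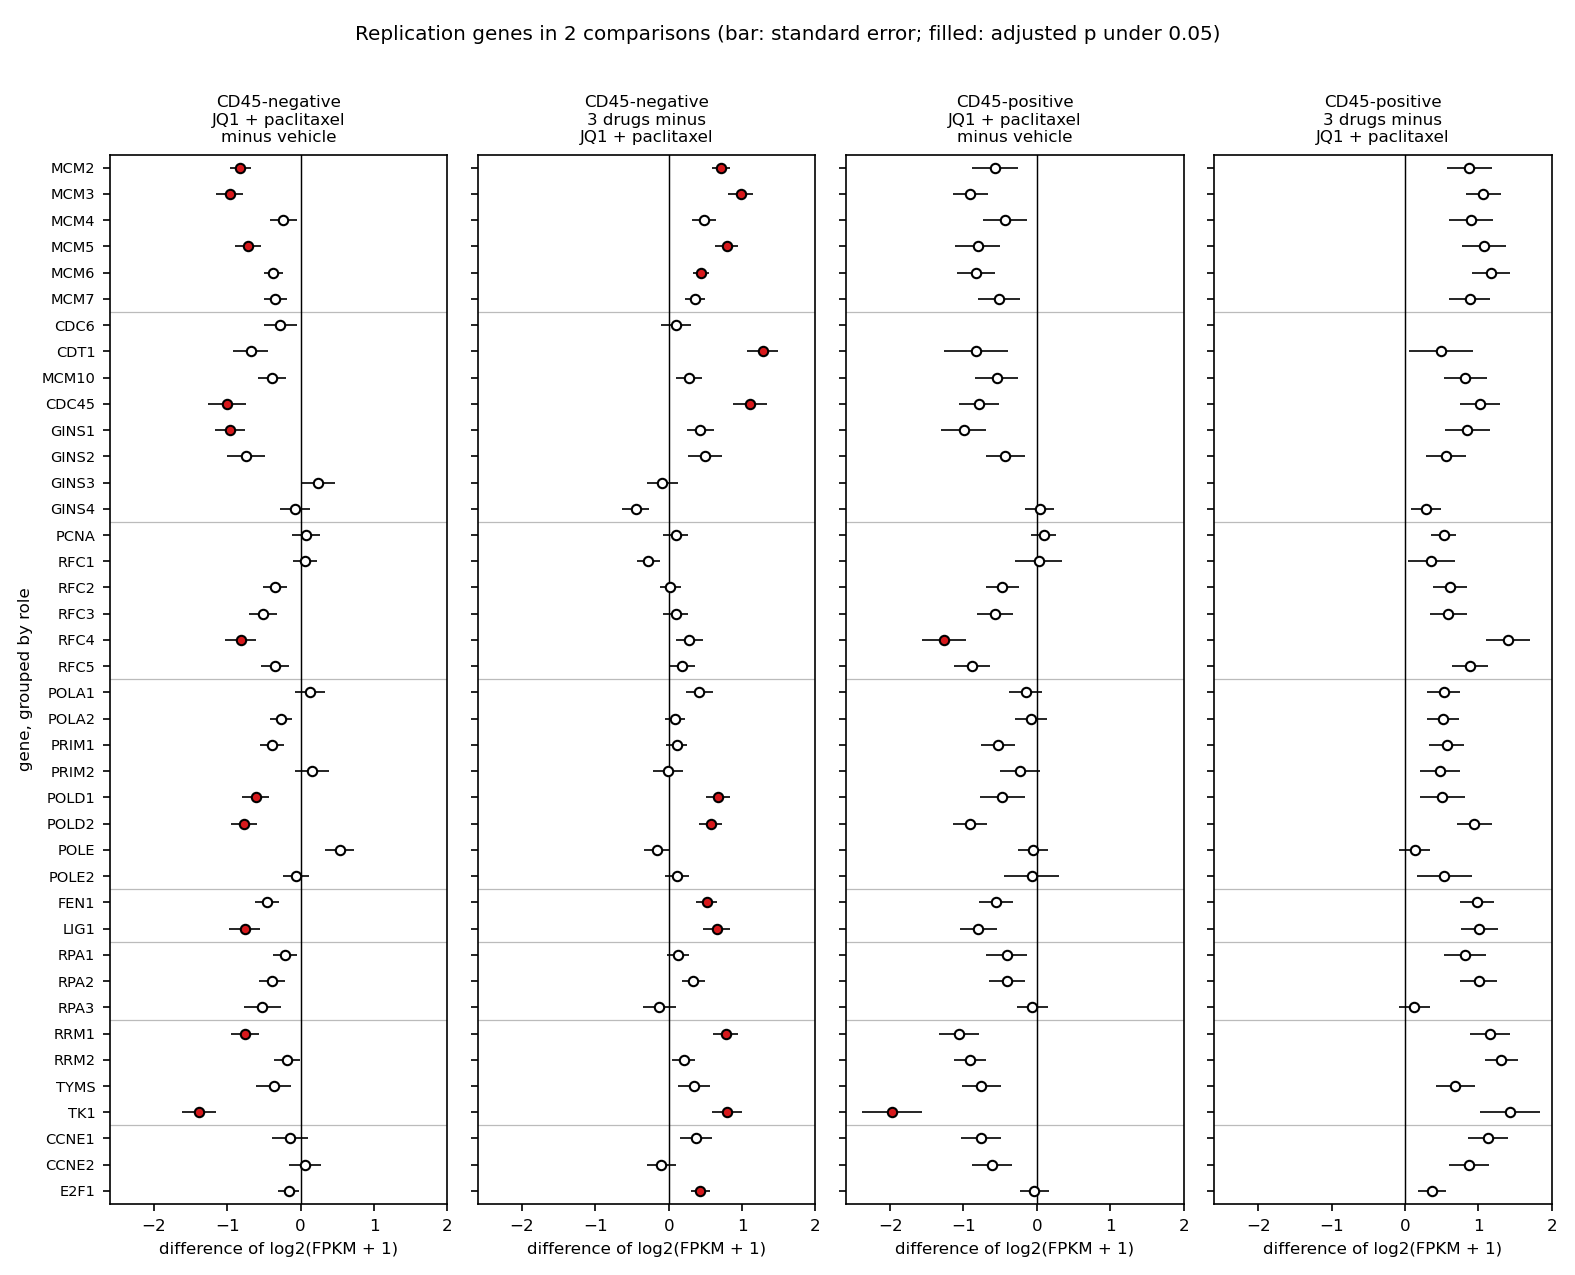
Difference of log2(FPKM + 1) ± standard error of each replication gene, in order of role, for JQ1 with paclitaxel minus vehicle and for 3-drug tumours minus JQ1 with paclitaxel, in both fractions; filled points had an adjusted p under 0.05. Filled points lie at −1.39 to −0.61 in the first panel, at 0.43 to 1.28 in the second, and at −1.98 and −1.27 in the third.

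Markers of other cells were not level between these groups. The leukocyte genes summed to 196.6 to 331.7 FPKM in 3-drug tumours, 117.5 to 306.5 FPKM with JQ1 and paclitaxel and 132.0 to 189.1 FPKM with vehicle. The 8 fibroblast genes summed to 1524 to 2227 FPKM in 3-drug tumours, 1108 to 2574 FPKM with JQ1 and paclitaxel and 1982 to 2087 FPKM with vehicle. The 8 endothelial genes summed to 7.65 to 25.8 FPKM in 3-drug tumours, 5.88 to 27.6 FPKM with JQ1 and paclitaxel and 4.21 to 6.51 FPKM with vehicle. In the first and second of these lists the JQ1 with paclitaxel values spanned the vehicle values. The 7 epithelial genes summed to 541.5 to 773.5 FPKM in 3-drug tumours, 344.8 to 550.0 FPKM with JQ1 and paclitaxel and 510.7 to 890.7 FPKM with vehicle. The 5 erythroid genes summed to 0.73 to 3.60 FPKM in 3-drug tumours, 0.646 to 2.26 FPKM with JQ1 and paclitaxel and 109.8 to 262.1 FPKM with vehicle. In the erythroid list the vehicle values stood far above those of both paclitaxel groups and of JQ1 alone (0.962 and 3.42 FPKM). JQ1 with anti-PD-L1 lay between, at 67.4 and 20.1 FPKM. The T cell genes (8 of 9 listed were in the table) summed to 1.91 to 19.0 FPKM in 3-drug tumours, 0.401 to 1.76 FPKM with JQ1 and paclitaxel and 2.23 to 2.79 FPKM with vehicle. All 3 JQ1 with paclitaxel libraries lay below every other CD45-negative library in this sum, as they did in the sum of the replication genes. The 8 neutrophil genes summed to 8.26 to 13.6 FPKM in 3-drug tumours, 10.3 to 11.7 FPKM with JQ1 and paclitaxel and 29.9 to 36.8 FPKM with vehicle. Macrophage genes summed to 419.6 to 678.6 FPKM in 3-drug tumours, 336.9 to 893.3 FPKM with JQ1 and paclitaxel and 294.5 to 388.4 FPKM with vehicle. With JQ1 alone the epithelial sum was 299.3 and 359.9 FPKM, below both vehicle values. The endothelial sum of JQ1 was 14.6 and 9.00 FPKM, above both vehicle values. Its leukocyte sum (202.2 and 140.1 FPKM) and fibroblast sum (2181 and 1571 FPKM) overlapped those of vehicle. No gene of these lists was at 0 in every CD45-negative library, and their part in the result was not tested.

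JQ1 alone (n = 2) shifted single replication genes in both directions relative to vehicle (n = 2) in CD45-negative cells. CCNE2 (0.96 ± 0.24, adjusted p = 0.0201), POLE (0.84 ± 0.22, adjusted p = 0.0233) and POLE2, a polymerase epsilon accessory subunit (0.74 ± 0.20, adjusted p = 0.0262), rose. POLE2 had 7.33 and 9.23 FPKM with JQ1, against 4.68 and 4.41 FPKM with vehicle. TK1 and RFC4 fell. Of all genes, 5.09% rose and 9.68% fell, so 3 of 40 higher and 2 of 40 lower are shares near those of all genes. The median of the replication genes was 0.06, against −0.05 for all genes, and it changed sign among the alternatives (−0.04 to 0.23). After median scaling the median of all genes moved by 0.14, all genes gave 943 higher and 739 lower in place of 549 and 1043, and the replication genes 5 higher and 2 lower. None of the 5 calls was made with relative depth as a covariate or after averaging by mouse code. The count was 2 without vehicle replicate 1, 1 without vehicle replicate 2 and 0 without JQ1 replicate 1.

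No replication gene passed the test in either group that received anti-PD-L1, set against vehicle. In JQ1 with anti-PD-L1 (n = 2) against vehicle, limma called 0 of 40 and 0.25% of all genes, and 2 replication genes, POLE and MCM6, were higher at an unadjusted p under 0.05, as were 6.22% of all genes. In 3-drug tumours (n = 3) against vehicle it called 0 of 40 and 1.63% of all genes, and 2 were higher and 6 lower at an unadjusted p under 0.05, against 7.09% higher and 12.5% lower of all genes. The medians were 0.06 and −0.03, against −0.03 and −0.07 for all genes, and both changed sign among the alternatives. After median scaling, all genes gave 12 higher and 18 lower in place of 7 and 20 in the first of these comparisons, and 70 and 58 in place of 63 and 113 in the second. Anti-PD-L1 added to JQ1 (n = 2 each) raised TK1 alone, while 3.41% of all genes rose. That call was not made without JQ1 replicate 1, without either JQ1 with anti-PD-L1 replicate, or after averaging by mouse code. Of all genes 368 rose and 261 fell there as deposited, and 338 rose and 362 fell after median scaling.

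Paclitaxel added to JQ1 (n = 3 against 2) gave 0 calls by limma among the 40, with 0.213% of all genes called. At an unadjusted p under 0.05, 23 of the 40 were lower and 0 higher, and 7.27% of all genes were lower. By any amount, 38 of the 40 and 52.8% of all genes were lower. MCM6 had the lowest p (−0.63 ± 0.13, adjusted p = 0.0627), and after median scaling it passed the test (adjusted p = 0.0445), with all genes at 20 higher and 20 lower in place of 9 and 14. Paclitaxel added to JQ1 with anti-PD-L1 (n = 3 against 2) gave 0 calls among the 40 and 1% of all genes, with 1 higher and 5 lower at an unadjusted p under 0.05, against 7.04% higher and 7.9% lower of all genes. Without JQ1 with paclitaxel replicate 3 there was 1 call, CDT1 (adjusted p = 0.0363). Whether the paclitaxel difference depended on anti-PD-L1 was tested as an interaction. It called 0 of the 40 and 0.00928% of all genes. The interaction was positive for 31 of the 40 (median 0.39) and for 48.2% of all genes (median −0.01). At an unadjusted p under 0.05, 8 of the 40 and 3.25% of all genes were positive, with MCM5 at 0.72 ± 0.25 (adjusted p = 0.552).

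Upstream sequence was examined for motifs of cell cycle transcription, although the 40 genes did not all move alike. Promoters came from RefSeq (mouse build GRCm38.p6), and 32 of the 40 genes had an entry. GINS1, GINS2, GINS4, MCM4, RFC2, PRIM2, POLE and CCNE2 had none. In the 250 bases before the start, an E2F-type word was found for 12 of 32 genes (37.5%), against 6.69% of all 32851 promoters. The words were TTCCCGC, its variant TTCGCGC and the further variant TTGGCGC, on either strand, counted also where they overlap. The 12 were MCM5, MCM6, MCM7, CDC6, GINS3, RFC3, POLA1, PRIM1, FEN1, RPA2, RPA3 and RRM1. The CCAAT box (CCAAT) was found for 19 (59.4%), against 33.9%, the E-box CACGTG for 5 (15.6%), against 6.02%, and the TTTGAA word for 5 (15.6%), against 16.0%. Of the 10 genes with an entry that fell with JQ1 and paclitaxel, 2 held an E2F-type word, MCM5 and RRM1. For each word a replication gene counted if any of its promoter entries matched, while the share of all promoters counts single entries. The shares set against each other here are therefore not like for like. A match describes letters in this window and is no measured binding.

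The stretches below lie before the starts of a helicase subunit that was lowest with JQ1 and paclitaxel, a nucleotide enzyme that fell there, and an RPA subunit that did not pass the test. Capitals mark E2F-type words, which overlap each other in MCM6. They are on the minus strand at chr1:128359706-128359825, the plus strand at chr7:102441575-102441694 and the plus strand at chr4:132768215-132768334, and none covers an annotated exon.
MCM6: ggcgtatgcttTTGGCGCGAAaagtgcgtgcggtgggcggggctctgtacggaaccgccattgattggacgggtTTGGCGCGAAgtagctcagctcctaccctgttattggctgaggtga
RRM1: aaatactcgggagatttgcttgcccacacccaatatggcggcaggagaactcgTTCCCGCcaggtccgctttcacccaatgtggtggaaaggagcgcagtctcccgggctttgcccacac
RPA2: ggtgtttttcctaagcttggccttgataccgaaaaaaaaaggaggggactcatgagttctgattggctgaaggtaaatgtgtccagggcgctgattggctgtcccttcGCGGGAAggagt

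Other genes of the same program were read from 3 further lists. Of 38 other replication genes tested in CD45-negative cells, 4 fell and 1 rose in JQ1 with paclitaxel against vehicle (median −0.16), where 12.3% of all genes fell and 5.29% rose. They included DUT, which removes dUTP (−0.57 ± 0.15, adjusted p = 0.0193), UHRF1, which brings DNA methylation to new strands (−0.74 ± 0.19, adjusted p = 0.0198), and POLE4, which rose (0.66 ± 0.18, adjusted p = 0.024). In 3-drug tumours against JQ1 with paclitaxel 3 of the 38 rose and 2 fell, beside 9.09% and 6.79% of all genes. The 3 were UHRF1 (0.77 ± 0.17, adjusted p = 0.00999), DUT (0.57 ± 0.13, adjusted p = 0.0126) and the chromatin assembly subunit CHAF1B (0.54 ± 0.13, adjusted p = 0.0149). Genes of this list were also called with JQ1 alone against vehicle. SLBP (1.11 ± 0.26, adjusted p = 0.0147) and CDC7 (0.79 ± 0.22, adjusted p = 0.0312) rose there. POLD4 fell there (−0.76 ± 0.18, adjusted p = 0.0167).

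Of 26 G1/S control genes, 5 fell and 1 rose with JQ1 and paclitaxel against vehicle, set beside the same 12.3% and 5.29% of all genes. The lowest p belonged to CCND1, a D-type cyclin that acts before cyclin E (−1.40 ± 0.20, adjusted p = 0.00084), CCNA2, the S and G2 cyclin (−0.93 ± 0.17, adjusted p = 0.00378), and the CDK inhibitor CDKN2D (−1.01 ± 0.23, adjusted p = 0.0109). In 3-drug tumours against JQ1 with paclitaxel 2 of the 26 rose, where 9.09% of all genes did. They were CCND1 (1.47 ± 0.18, adjusted p = 0.000458) and the CDK inhibitor CDKN1A (0.71 ± 0.20, adjusted p = 0.0287). CDKN2C fell (−0.64 ± 0.13, adjusted p = 0.0078). Without paclitaxel, CCND1 also fell with JQ1 alone against vehicle (−1.10 ± 0.22, adjusted p = 0.00676). It rose where anti-PD-L1 was added to JQ1 (1.24 ± 0.22, adjusted p = 0.0107). E2F5 rose with JQ1 alone against vehicle (0.71 ± 0.21, adjusted p = 0.0413). CCNA2 also fell where paclitaxel was added to JQ1 (−1.24 ± 0.17, adjusted p = 0.0209) and to JQ1 with anti-PD-L1 (−0.92 ± 0.17, adjusted p = 0.0388). In 3-drug tumours against vehicle, where 1.63% of all genes were called, CCNA2 fell (−0.83 ± 0.17, adjusted p = 0.0455). CDKN2C fell there too (−0.86 ± 0.15, adjusted p = 0.0258), and CDKN1A rose (1.42 ± 0.22, adjusted p = 0.0213). None of the 40 replication genes passed the test where paclitaxel was added or in 3-drug tumours against vehicle.

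Of 20 mitotic genes, 15 fell in JQ1 with paclitaxel against vehicle (median −0.93), where 12.3% of all genes fell. PLK1, a mitotic kinase, fell most clearly (−1.78 ± 0.22, adjusted p = 0.000332). In 3-drug tumours against JQ1 with paclitaxel 6 of the 20 rose, where 9.09% of all genes did. Among them were 2 cyclins of mitotic entry, CCNB2 (0.98 ± 0.20, adjusted p = 0.0079) and CCNB1 (0.90 ± 0.23, adjusted p = 0.0202). Some of the 20 also fell with JQ1 alone against vehicle, where 9.68% of all genes fell. They included CCNB2 (−1.07 ± 0.25, adjusted p = 0.0152) and UBE2C (−1.12 ± 0.27, adjusted p = 0.0173). PLK1 fell there as well (−0.88 ± 0.24, adjusted p = 0.0286). UBE2C rose where anti-PD-L1 was added to JQ1 (1.09 ± 0.27, adjusted p = 0.0351). Against vehicle, 3-drug tumours were lower for all 20 (median −0.53) and for 58.7% of all genes, with 1 call, PLK1 (−1.05 ± 0.22, adjusted p = 0.0455), while the replication genes had a median of −0.03. The difference between the lists was not tested.

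HEXIM1, a gene that BET inhibition is known to raise, followed another order. It had 1.50, 0.978 and 1.32 FPKM in 3-drug tumours, 3.67, 4.70 and 3.24 FPKM with JQ1 and paclitaxel, 2.02 and 1.15 FPKM with JQ1 and anti-PD-L1, 4.08 and 3.34 FPKM with JQ1, and 0.768 and 1.38 FPKM with vehicle. It rose against vehicle with JQ1 and paclitaxel (1.24 ± 0.22, adjusted p = 0.00309) and with JQ1 (1.20 ± 0.24, adjusted p = 0.0076), and lay at 0.14 ± 0.22 (adjusted p = 0.769) in 3-drug tumours, which also received JQ1. Against JQ1 with paclitaxel it fell in 3-drug tumours (−1.10 ± 0.20, adjusted p = 0.00383). MYC, a transcription factor upstream of many growth genes, had 128, 136 and 116 FPKM in 3-drug tumours, 93.9, 85.2 and 111 FPKM with JQ1 and paclitaxel, 46.7 and 75.7 FPKM with JQ1 and anti-PD-L1, 44.2 and 67.1 FPKM with JQ1, and 47.1 and 138 FPKM with vehicle. The vehicle libraries spanned nearly the whole range, and MYC passed no test.

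In CD45-positive cells JQ1 with paclitaxel was again the lowest group, and few single genes passed the test. With JQ1 and paclitaxel (n = 2) against vehicle (n = 2), TK1 (−1.98 ± 0.41, adjusted p = 0.0314) and RFC4 (−1.27 ± 0.30, adjusted p = 0.0481) fell, 2 of 38 genes, and none rose. Of all genes, 3.26% fell. At an unadjusted p under 0.05, 16 of the 38 and 15.5% of all genes were lower, and 0 of the 38 and 5.83% of all genes were higher. The median difference was −0.55, against −0.09 for all genes. In 26 of the 38 both JQ1 with paclitaxel libraries lay below both vehicle libraries, against 33.5% of all genes. Neither call was made without either vehicle replicate, without JQ1 with paclitaxel replicate 2, without either JQ1 with anti-PD-L1 replicate, without the filter on low values, with depth or, as tried after seeing the data, tumour side as a covariate, or after averaging by mouse code. Without JQ1 with paclitaxel replicate 1 there was 1 call. After median scaling, which moved the median of all genes by 0.16, there was 1 call, and all genes gave 197 higher and 185 lower in place of 163 and 337.

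The 3-drug group (n = 2) was higher than JQ1 with paclitaxel (n = 2) for all 38 genes and for 62% of all genes in CD45-positive cells, and limma called 0 of them and 0.00967% of all genes. At an unadjusted p under 0.05, 28 of the 38 and 8.54% of all genes were higher, and 0 of the 38 were lower. The median was 0.84, against 0.12 for all genes, and stayed between 0.50 and 1.0 under the alternatives. The median of all genes moved by −0.16 after median scaling, with 1 of them higher and 5 lower in place of 0 and 1. In 33 of the 38 both 3-drug libraries lay above both JQ1 with paclitaxel libraries, against 27.3% of all genes. JQ1 with paclitaxel had the lowest group mean for 32 of the 38, against 29.4% of all genes. For 13 of the 38 both its libraries lay below the other 8, against 6.72% of all genes. These were MCM3, MCM5, MCM6, MCM7, CDC45, RFC4, POLD2, FEN1, LIG1, RPA2, RRM1, RRM2 and TK1.

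In the helicase genes of CD45-positive cells, MCM3 had 18.8 and 16.3 FPKM in 3-drug tumours, 8.79 and 6.96 FPKM with JQ1 and paclitaxel, 14.9 and 15.8 FPKM with JQ1 and anti-PD-L1, 13.2 and 9.01 FPKM with JQ1, and 13.7 and 17.6 FPKM with vehicle. MCM5 had 20.3 and 16.1 FPKM in 3-drug tumours, 10.4 and 6.11 FPKM with JQ1 and paclitaxel, 15.6 and 19.5 FPKM with JQ1 and anti-PD-L1, 15.5 and 11.0 FPKM with JQ1, and 12.2 and 17.8 FPKM with vehicle. Both were lowest with JQ1 and paclitaxel, with adjusted p of 0.0702 and 0.171 against vehicle. CDC45 had 5.04 and 4.37 FPKM in 3-drug tumours, 2.42 and 1.30 FPKM with JQ1 and paclitaxel, 3.16 and 4.48 FPKM with JQ1 and anti-PD-L1, 2.52 and 3.47 FPKM with JQ1, and 4.05 and 3.66 FPKM with vehicle. GINS2 had 9.23 and 8.35 FPKM in 3-drug tumours, 6.02 and 5.27 FPKM with JQ1 and paclitaxel, 9.78 and 6.74 FPKM with JQ1 and anti-PD-L1, 8.07 and 5.28 FPKM with JQ1, and 6.95 and 9.04 FPKM with vehicle. For GINS2 the JQ1 and JQ1 with paclitaxel values overlapped.

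CDT1 did not follow the CD45-negative order. It had 22.3 and 10.2 FPKM in 3-drug tumours, 11.3 and 9.71 FPKM with JQ1 and paclitaxel, 8.87 and 14.4 FPKM with JQ1 and anti-PD-L1, 26.3 and 12.2 FPKM with JQ1, and 16.4 and 23.1 FPKM with vehicle, so that the tumours of 3-drug and JQ1 groups were far apart. CDC6, untested, was listed between 0.0894 and 1.64 FPKM. PCNA had 79.7 and 85.7 FPKM in 3-drug tumours, 58.4 and 55.7 FPKM with JQ1 and paclitaxel, 60.5 and 55.8 FPKM with JQ1 and anti-PD-L1, 59.3 and 73.3 FPKM with JQ1, and 53.4 and 53.2 FPKM with vehicle. The 3-drug values were the highest of the fraction, at 0.62 ± 0.17 above vehicle (adjusted p = 0.359). RFC4 had 9.71 and 7.64 FPKM in 3-drug tumours, 3.66 and 1.83 FPKM with JQ1 and paclitaxel, 6.47 and 7.34 FPKM with JQ1 and anti-PD-L1, 7.25 and 5.18 FPKM with JQ1, and 6.74 and 8.87 FPKM with vehicle.

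POLA1 lay between 1.23 and 2.52 FPKM in CD45-positive cells and POLE between 0.494 and 1.32 FPKM, and neither passed a test. FEN1 had 22.8 and 19.4 FPKM in 3-drug tumours, 10.3 and 10.1 FPKM with JQ1 and paclitaxel, 14.6 and 18.2 FPKM with JQ1 and anti-PD-L1, 18.8 and 13.1 FPKM with JQ1, and 17.0 and 14.2 FPKM with vehicle. LIG1 had 14.9 and 9.88 FPKM in 3-drug tumours, 6.23 and 4.88 FPKM with JQ1 and paclitaxel, 11.8 and 13.3 FPKM with JQ1 and anti-PD-L1, 9.72 and 7.50 FPKM with JQ1, and 9.42 and 11.3 FPKM with vehicle. Both lagging strand enzymes were lowest with JQ1 and paclitaxel, without overlap. RPA2 had 11.2 and 9.66 FPKM in 3-drug tumours, 5.22 and 4.15 FPKM with JQ1 and paclitaxel, 7.90 and 8.24 FPKM with JQ1 and anti-PD-L1, 12.2 and 7.74 FPKM with JQ1, and 6.96 and 6.06 FPKM with vehicle, and had the lowest p of the 38 for the interaction of the added drugs (1.25 ± 0.35, adjusted p = 0.334).

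Among the nucleotide enzymes, TK1 had 16.3 and 7.49 FPKM in 3-drug tumours, 4.84 and 2.46 FPKM with JQ1 and paclitaxel, 12.9 and 14.9 FPKM with JQ1 and anti-PD-L1, 10.0 and 6.00 FPKM with JQ1, and 20.1 and 13.8 FPKM with vehicle. RRM2 had 31.0 and 37.8 FPKM in 3-drug tumours, 15.1 and 11.4 FPKM with JQ1 and paclitaxel, 23.9 and 25.2 FPKM with JQ1 and anti-PD-L1, 18.0 and 22.0 FPKM with JQ1, and 22.9 and 28.7 FPKM with vehicle. The 2 RRM2 groups compared for anti-PD-L1 on top of JQ1 and paclitaxel were far apart (1.31 ± 0.22), with an adjusted p of 0.114. Both values given 3 drugs exceeded all others. TYMS had 4.18 and 3.76 FPKM in 3-drug tumours, 2.80 and 1.50 FPKM with JQ1 and paclitaxel, 3.29 and 4.09 FPKM with JQ1 and anti-PD-L1, 2.27 and 2.78 FPKM with JQ1, and 4.64 and 3.79 FPKM with vehicle. E2F1 kept to 8.98 to 13.5 FPKM in all 10 libraries, CCNE1 to 1.23 to 5.31 FPKM and CCNE2 to 0.454 to 2.34 FPKM, and none of these regulators passed a test.

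**Figure D4:**
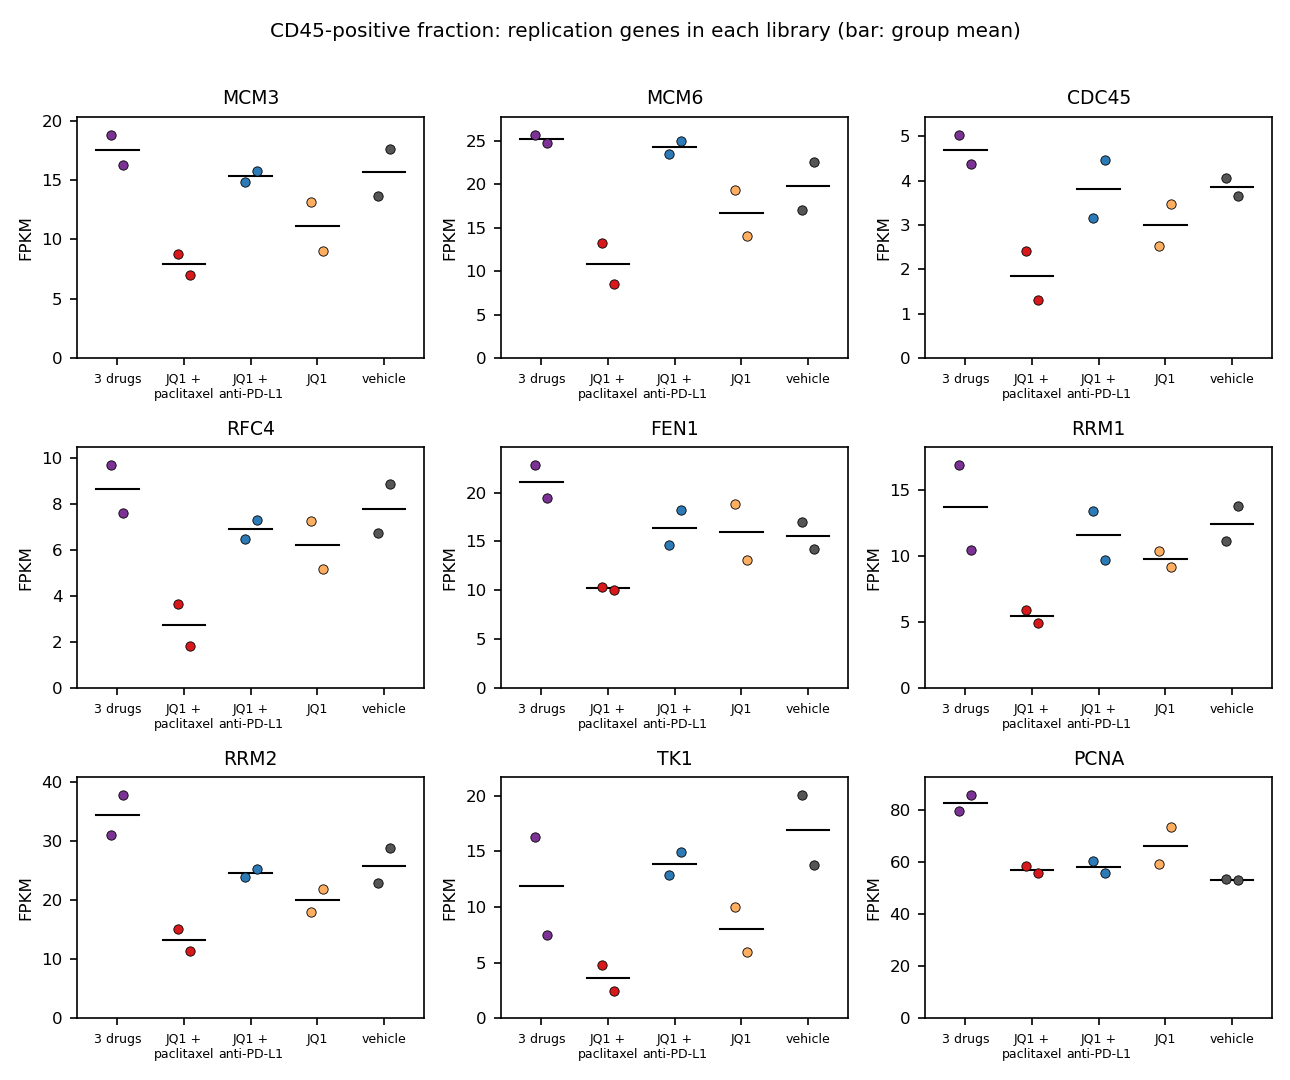
FPKM of 9 replication genes in each CD45-positive library, by treatment group, with 1 point per library and a bar at the group mean. MCM3, MCM6, CDC45, RFC4, FEN1, RRM1, RRM2 and TK1 are lowest in both JQ1 with paclitaxel libraries, and PCNA is highest in both 3-drug libraries.

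In CD45-positive cells the cell markers also differed by group. The leukocyte sum was 1951 to 2308 FPKM in 3-drug tumours, 1337 to 1465 FPKM with JQ1 and paclitaxel and 2018 to 2138 FPKM with vehicle. The fibroblast sum was 42.5 to 47.5 FPKM in 3-drug tumours, 113.4 to 202.2 FPKM with JQ1 and paclitaxel and 62.6 to 95.3 FPKM with vehicle. The endothelial sum was 21.9 to 26.5 FPKM in 3-drug tumours, 69.3 to 97.4 FPKM with JQ1 and paclitaxel and 4.81 to 8.42 FPKM with vehicle. In these lists JQ1 with paclitaxel did not overlap the other groups. The neutrophil sum, over 8 genes, was 220.3 to 859.3 FPKM in 3-drug tumours, 238.0 to 259.8 FPKM with JQ1 and paclitaxel and 675.0 to 1077 FPKM with vehicle. The macrophage sum was 5168 to 5516 FPKM in 3-drug tumours, 4121 to 5577 FPKM with JQ1 and paclitaxel and 4761 to 5238 FPKM with vehicle. The 7 epithelial genes summed to 9.53 to 29.6 FPKM in 3-drug tumours, 34.9 to 97.1 FPKM with JQ1 and paclitaxel and 28.3 to 31.7 FPKM with vehicle, so JQ1 with paclitaxel lay above both. The 5 erythroid genes summed to 0.107 to 0.756 FPKM in 3-drug tumours, 1.28 to 9.51 FPKM with JQ1 and paclitaxel and 17.2 to 38.1 FPKM with vehicle, the highest group. The T cell genes summed to 18.9 to 50.3 FPKM in 3-drug tumours, 7.02 to 23.1 FPKM with JQ1 and paclitaxel and 15.7 to 20.1 FPKM with vehicle, and JQ1 with paclitaxel overlapped both. The B cell sum was 30.4 to 51.3 FPKM in 3-drug tumours and 0.511 to 32.8 FPKM with JQ1 and paclitaxel. It was 146.5 to 161.8 FPKM with JQ1 and 8.42 to 9.90 FPKM with vehicle. The natural killer cell sum was 6.38 to 9.56 FPKM in 3-drug tumours and 3.46 to 3.98 FPKM with JQ1 and paclitaxel, without overlap. It was 11.1 to 11.2 FPKM with JQ1 and 3.13 to 4.12 FPKM with vehicle. Leukocyte genes were thus lowest, and fibroblast and endothelial genes highest, in the group where replication genes were lowest. Of these lists only SLC4A1, an erythroid gene, was at 0 in all 10 libraries. The part of these cells in the result was not tested.

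The remaining comparisons gave 0 calls by limma among the 38 genes. JQ1 against vehicle called 1.04% of all genes (63 higher and 45 lower, or 115 and 46 after median scaling), and 2 replication genes, TK1 and RFC5, were lower at an unadjusted p under 0.05, as were 10.6% of all genes. JQ1 with anti-PD-L1 against vehicle called 0.029% of all genes, and 0 replication genes passed that level in either direction, where 7.11% of all genes did. The 3-drug group against vehicle called 0.135%, and PCNA and RPA2 were higher at an unadjusted p under 0.05, as were 3.25% of all genes. Paclitaxel added to JQ1 called 0% of all genes. At an unadjusted p under 0.05, 11 of the 38 replication genes and 7.2% of all genes were lower there. Paclitaxel added to JQ1 with anti-PD-L1 called 0.00967%, and at that level 1 replication gene, PCNA, and 4.85% of all genes were higher. Anti-PD-L1 added to JQ1 called 0% of all genes, with 0 replication genes and 16.5% of all genes at the unadjusted level. The interaction called 0% of all genes. At an unadjusted p under 0.05 it was positive for 6 of the 38 and for 7.92% of all genes, and its median was 0.67, against 0.16 for all genes.

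Of other lists in CD45-positive cells, 9 of 20 mitotic genes fell with JQ1 and paclitaxel (median −1.30), where 3.26% of all genes fell, among them BIRC5, a subunit of the chromosomal passenger complex (−1.68 ± 0.28, adjusted p = 0.0162). Of 25 G1/S control genes 1 fell, CCNA2 (−1.27 ± 0.28, adjusted p = 0.038), and 0 of 36 other replication genes passed the test, with 2 higher and 10 lower at an unadjusted p under 0.05, against 5.83% and 15.5% of all genes. With JQ1 alone 1 mitotic gene fell, CDC20, an activator of the anaphase-promoting complex (−1.53 ± 0.26, adjusted p = 0.0341). HEXIM1 had 1.81 and 3.93 FPKM in 3-drug tumours, 4.80 and 4.74 FPKM with JQ1 and paclitaxel, 4.13 and 1.99 FPKM with JQ1 and anti-PD-L1, 2.84 and 5.75 FPKM with JQ1, and 0.993 and 1.99 FPKM with vehicle. MYC had 11.2 and 13.3 FPKM in 3-drug tumours, 16.1 and 11.5 FPKM with JQ1 and paclitaxel, 10.3 and 12.0 FPKM with JQ1 and anti-PD-L1, 10.0 and 14.4 FPKM with JQ1, and 19.1 and 18.6 FPKM with vehicle. Neither passed a test, although both vehicle libraries held the most MYC.

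In 10 tumours both fractions were measured, in tables normalised separately, so levels across them are set side by side without a test. The summed replication genes in CD45-positive cells came to 43.2% to 78.1% of the CD45-negative sum of the same tumour (median 58.0%). Between 28 and 40 of the 40 genes were higher in the CD45-negative fraction of a tumour. CDC45 had a median of 12.2 FPKM in CD45-negative and 3.56 FPKM in CD45-positive cells and was higher in CD45-negative cells in 10 of 10 tumours. MCM3 (medians 15.0 and 14.3 FPKM) and FEN1 (medians 16.9 and 15.8 FPKM) were higher there in 5 of 10 tumours.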

How the data were processed

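The authors deposited 1 table of FPKM for each fraction. The unit was inferred from values with decimals whose columns sum to 296682 to 370513 and 315256 to 364118. Reads were aligned with STAR 2.5.1b to mm9, per the submitters' processing notes, and libraries were made with a low-input SMARTer kit, per the labels. The tool behind the gene values is not given in the sources used here. Within a fraction, log2(FPKM + 1) of the 5 groups entered limma 3.58.1 (R 4.3.3) with trended variance, which left 7 and 5 residual degrees of freedom. Tests were two-sided and adjusted by Benjamini-Hochberg over all genes tested. The fit was tested on simulated data, and the outcome of that test is not reported here. Tables were built with pandas 2.3.3 and drawn with matplotlib 3.10.9 under Python 3.11.15.

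The members, lists and rules were chosen with earlier results of these data known. Named were all members that passed a test, with library values for up to 6 of lowest p per comparison and for 19 representatives of the roles, up to 3 members of other lists per comparison, HEXIM1 and MYC. Alternatives were a pseudocount of 0.1, no filter, median scaling, relative depth as a covariate, averaging the tumours of a mouse code, leaving out each library and, chosen after seeing the data, tumour side as a covariate.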

Additional observations from a re-analysis of the deposited data

Results flagged for a closer look

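In 17 pairs of a gene and a comparison, the libraries of the compared groups did not overlap in either fraction. In these pairs the difference had opposite signs in CD45-negative and CD45-positive cells. The difference between fractions was not tested in any of them, since the tables were normalised separately. The 17 are 5.59% of the 304 pairs of a replication gene and a comparison tested in both fractions. Over all 76944 such pairs of the genes tested in both the share was 4.14%, so the replication genes were near the share of all genes. The values are differences of log2(FPKM + 1), given for CD45-negative and then CD45-positive cells.

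With JQ1 against vehicle, PRIM2 stood at 0.58 and −0.27, RRM2 at 0.52 and −0.35, and CCNE1 at 0.63 and −0.55. With JQ1 and anti-PD-L1 against vehicle, GINS4 stood at −0.23 and 0.15, PRIM1 at 0.33 and −0.43, and RPA2 at −0.049 and 0.27. In 3-drug tumours against vehicle, GINS4 stood at −0.53 and 0.33, RFC1 at −0.22 and 0.39, and POLA2 at −0.18 and 0.44. With paclitaxel added to JQ1 and anti-PD-L1, GINS4 stood at −0.31 and 0.18, RFC4 at −0.41 and 0.29, PRIM1 at −0.61 and 0.47, RPA3 at −0.78 and 0.26, and RRM2 at −0.30 and 0.46. With anti-PD-L1 added to JQ1, GINS4 stood at −0.41 and 0.31, POLD1 at 0.41 and −0.12, and CCNE1 at −0.35 and 0.47. GINS4 thus appears in 4 of the comparisons, 3 of which share the JQ1 with anti-PD-L1 libraries.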

How the results depend on the processing

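No replication gene that passed a test changed sign under any alternative, and in refits of such genes 445 kept the call and 127 did not. TK1 with JQ1 and paclitaxel against vehicle, and CDT1, MCM2, MCM3, MCM5, CDC45 and RRM1 with anti-PD-L1 added to JQ1 and paclitaxel, kept theirs in all 19 CD45-negative fits. After averaging by mouse code the counts of called genes in CD45-negative cells were 0 for JQ1, 1 for JQ1 with paclitaxel, 0 for anti-PD-L1 added to JQ1 and 8 for anti-PD-L1 added to JQ1 and paclitaxel. Depth as a covariate gave 0 for JQ1, and median scaling 1 for paclitaxel added to JQ1. In CD45-positive cells the count for JQ1 with paclitaxel was 1 with a pseudocount of 0.1, 1 with median scaling, and 0 without a filter, with depth as a covariate, with tumour side as a covariate or after averaging by mouse code. Leaving out single libraries gave 0 to 6, 3 to 13, 0 to 1 and 6 to 13 for these 4 CD45-negative comparisons, 0 to 1 for paclitaxel added to JQ1 and anti-PD-L1, and 0 to 2 for CD45-positive JQ1 with paclitaxel. The cause of these shifts was not tested. No paired analysis was possible because replicate numbers follow accession order and no compared groups share a mouse code. Right or left side, which the titles give, was entered as a covariate after seeing the data, and the other counts then stayed within 1.5 times, at 11 for JQ1 with paclitaxel and 13 for anti-PD-L1 added to it in CD45-negative cells. Absolute depth is unknown and limits what can be said of genes under 1 FPKM.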
